A study of Sus scrofa with 12 samples.

Results

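N6-methyladenosine (m6A) peaks annotated to exons of non-coding RNA were examined in primary granulosa cells of the pig (Sus scrofa). The members were the peaks that the deposited tables annotate as ncRNA_exonic, a choice that used no measured value. There were 1078 of them among 25346 peaks of the normoxia list (4.25%), 1093 of 24444 in the hypoxia list (4.47%) and 33 of 1206 in the table of differential peaks (2.74%). Together they lie on 731 host genes, 578 in the normoxia list and 605 in the hypoxia list. None of the host genes, 0 of 731, had a peak of another annotation.

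The cells came from antral follicles of sexually mature crossbred sows (Duroc, Yorkshire and Landrace) and were cultured with serum. They spent 12 h in normoxia (21% O2) or hypoxia (1% O2), with the same CO2. From each of 3 biological replicates per condition, poly(A) RNA was fragmented, and an aliquot sequenced as input beside the RNA pulled down by an antibody to m6A, which made 12 libraries. The labels name a single batch and do not say whether each replicate was a different sow. The p-values below therefore measure the spread between these cultures.

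m6A is written co-transcriptionally by the METTL3-METTL14 methyltransferase, removed by FTO and ALKBH5, and read by YTH-domain proteins. In messenger RNA it gathers in long exons and around the stop codon. Long non-coding RNAs are transcribed, spliced and polyadenylated like messenger RNAs, can carry the mark too, and are mostly less abundant; snoRNAs and microRNAs are short RNAs that are often cut from introns or longer host transcripts. Antibody enrichment followed by sequencing marks a methylated region of about a fragment's length, not the methylated base.

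Most of the few named hosts carried the symbol of a protein-coding gene, although the annotation calls them non-coding. A symbol was found for 24 of the 731 host genes, 19 in the deposited tables and 5 in a table of gene names. Only 6 of these were small RNAs: MIR1282, ssc-mir-101-2, SNORD65, SNORD87, U2 and U6. The other 18 carried the symbol of a gene that RefSeq gives as protein-coding, namely AHDC1, BDKRB1, BLOC1S3, C3AR1, FAT1, FOXL2, GPRIN3, HPS5, HPS6, MANSC1, NAP1L5, NHLRC1, NOD1, PLRG1, TOB1, TSHZ2, XIRP1 and ZBED4. Among these are FOXL2, the transcription factor that maintains granulosa cell identity, NOD1, an intracellular sensor of bacterial peptidoglycan, and FAT1, a giant cadherin. The members are called ncRNA_exonic peaks here for that reason, after their annotation.

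The 707 host genes without a symbol were placed by overlap of their span with RefSeq genes of the same build, Sscrofa11.1, for which the reference table gives no strand. Of all 731 host genes, 343 (46.92%) overlapped a protein-coding RefSeq gene, 199 (27.22%) a lncRNA and no protein-coding gene, 10 (1.37%) another kind of gene and 179 (24.49%) none. When 1 RefSeq gene had to cover at least 50% of the host span, a criterion added after the data were seen, the numbers were 278, 189, 9 and 255. Below, "the host at SOX4" means an unnamed gene whose span overlaps RefSeq SOX4, and does not mean that it is SOX4. Of 44 well-known lncRNAs searched by symbol, the expression table names 1, TUG1. Its peak at chr14:47799931-47800398 (+) is annotated exonic and so is no member, with a log2 enrichment of 4.41 in normoxia and 4.36 in hypoxia.

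The annotated cell type was checked against markers. Of 8 granulosa cell genes, 6 reached 1 FPKM (fragments scaled by gene length and by library), and AMH and CYP19A1 did not. The summed FPKM of the granulosa list was 71.9 to 76.5 in the normoxia libraries and 74.4 to 89.7 in the hypoxia libraries. The summed FPKM of 4 endothelial genes was 6.28 to 6.92 in normoxia and 2.88 to 3.15 in hypoxia, with CDH5, KDR and VWF each under 1 FPKM or not listed. That of 3 theca genes, with CYP17A1 under 1 FPKM or not listed, was 8.47 to 13.9 and 11.8 to 27.5, and that of 3 oocyte genes, with BMP15 and ZP3 under 1 FPKM or not listed, 1.12 to 1.38 and 0.560 to 1.33. The sum of 3 leukocyte genes was 0.938 to 1.78 and 1.56 to 4.68, with CSF1R and PTPRC under 1 FPKM, and no erythrocyte gene of 3 is listed. The part of these cells in the results below was not tested. In such bulk RNA, fewer cells of a type and less RNA per cell cannot be told apart. FPKM summed to between 294929 and 326804 per library. The files give no counts, so the depth behind each value is unknown.

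The host genes of ncRNA_exonic peaks had little RNA in the input. The expression table lists 575 of the 731, and their median FPKM over the 6 input libraries was 0.192. The 11629 listed genes with peaks of other annotations had a median of 3.73. Of the listed hosts 212 (36.87%) were under 0.1 FPKM, against 4.43% of the other genes with peaks, and 118 (20.52%) reached 1 FPKM, against 75.49%. Hosts at protein-coding RefSeq loci had a median of 0.325 FPKM, hosts at lncRNA loci 0.141 and hosts at no RefSeq gene 0.107.

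The 8 most abundant hosts reached mean levels of 28.9 to 55.1 FPKM over all libraries. The highest was ENSSSCG00000044572, which spans chr7:23933386-23936456 (+) at the RefSeq lncRNA LOC100624113, inside the span of the heat shock gene HSPA1L. It contains the small nucleolar RNA genes SNORD48 and SNORD52. Its level was 47.2, 47.8 and 49.1 FPKM in normoxia and 68.7, 54.0 and 64.0 in hypoxia. The groups did not overlap, but the difference did not pass the test (limma log2 fold change 0.36, SE 0.142, adjusted p = 0.106).

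The host at SOX4, a transcription factor gene, was also among them. ENSSSCG00000054652 had 56.3, 67.3 and 42.6 FPKM in normoxia and 44.9, 63.3 and 37.5 in hypoxia, so the groups overlapped. SOX4 itself is listed under another identifier at 18.3 ± 1.81 and 18.4 ± 6.68 FPKM (SD, n = 3 each). The host covers 30.0% of the SOX4 span and lies on its strand. The host at JUND, an AP-1 transcription factor gene, had 27.5 ± 10.3 and 30.4 ± 2.77 FPKM and covers 56.2% of the JUND span. JUND is listed under no other identifier. The other hosts among the top 8 were those at THSD4, MGAT5 and LOC100519997, and XIRP1 and MANSC1.

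Hosts that contain small RNA genes formed a small group. The span of 8 hosts holds a snoRNA gene and that of 5 holds a RefSeq microRNA gene. A host with SNORD49A, SNORD49B and SNORD65 inside had 6.12 ± 0.498 FPKM in normoxia and 8.09 ± 1.19 in hypoxia (SD, n = 3 each). The host around SNORD87 had 7.33 ± 0.368 and 4.87 ± 0.823, and the host around MIR365-1 1.82 ± 0.399 and 3.23 ± 0.714. None of these 3 passed the test. The hosts around MIR15A and MIR16-2 (0.0864 and 0.0721 FPKM) and around MIR421 and MIR374B (0.0926 and 0.147 FPKM) stayed far below 1 FPKM in both conditions.

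The small RNAs that are themselves hosts differed in level in this poly(A) input, and 4 of the 6 are listed. SNORD65 had 0.618 ± 0.363 FPKM in normoxia and 0.337 ± 0.367 in hypoxia, and MIR1282 0.0143 ± 0.0124 and 0.00568 ± 0.00984. SNORD87 was listed at 0 in every normoxia library and above 0 in 1 hypoxia library, at 0.19 FPKM. The U2 spliceosomal RNA had 0.985 ± 0.592 and 1.53 ± 1.00 FPKM, with overlapping groups. U6 and ssc-mir-101-2 are not listed in the expression table. The peak named for U6 in the normoxia list spans 351937 bases, the longest of the members, and its adjusted p-value in the authors' deposited table was 0.331.

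Hypoxia was next compared with normoxia in the input RNA of the host genes. NOD1 and the host at the leucine-rich repeat gene LRRN4CL were among those that rose, and BDKRB1, the bradykinin B1 receptor gene, and the host at THSD4 among those that fell. The test was limma's on log2(FPKM + 1), fitted over all 10196 genes that reached 1 FPKM in at least 3 libraries, with adjusted p under 0.05 as the threshold. It could test 121 of the 575 listed hosts and left 454 below the filter. It called 28 of the 121 (23.14%), against 26.5% of all tested genes. Of these 13 were higher in hypoxia (10.74%, against 5.4% of all genes) and 15 lower (12.4%, against 21.1%). The median log2 fold change was -0.09 for the tested hosts and -0.26 for all tested genes.

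**Figure D1:**
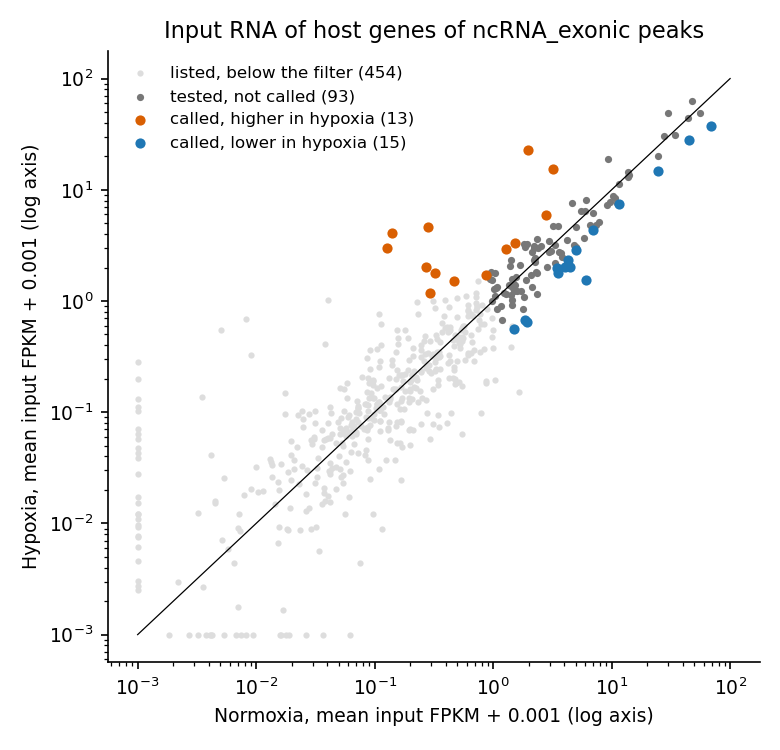
Mean input FPKM of the 575 listed host genes in normoxia (x axis) and hypoxia (y axis), each plus 0.001 on log axes; the line marks equal levels. Most hosts lie below 1 FPKM and were not tested, the 13 hosts called higher are orange and the 15 called lower blue.

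The balance of rises and falls moved with the scaling. After median-ratio scaling of the libraries 24 hosts were called, 20 higher and 4 lower, against 14.7%, 7.34% and 7.39% of all tested genes. The median log2 fold change was then 0.16 for hosts and 0.02 for all genes. All 13 hosts called higher as deposited were also called higher after scaling, while 4 of the 15 called lower were called after it. These 4 were BDKRB1 and the hosts at ZNF618, DPF3 and LOC102162054. In 55 of the 121 tested hosts (45.45%) the 3 libraries of a condition did not overlap those of the other, against 44.1% of all tested genes.

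Some hosts passed the filter through a single condition. Of the tested hosts 7 reached 1 FPKM only in the 3 hypoxia libraries, and all 7 were called higher; 4 reached it only in the 3 normoxia libraries, and 3 of these were called lower. A host that reached 1 FPKM in the group where it is high alone had to differ to be tested, so these 10 calls are given as values below and support nothing. The groups of all hosts tested in this way cannot overlap, and the count of non-overlap above includes them. Of the 110 others, 6 were called higher and 12 lower. The share over all genes that passed the filter in this way was not counted. The 6 and 12 are therefore not read as a trait of the hosts. The counts of called hosts also depended on single libraries. They fell to 13, 11 and 10 without normoxia replicate 1, 2 and 3 and to 6 without hypoxia replicate 1, and were 25 without hypoxia replicate 2 and 41 without hypoxia replicate 3. The share over all tested genes is not set beside these counts, so they are not read as particular to the hosts. Of the 28 called hosts, 4 were called in all 6 of these fits, NOD1, BDKRB1 and the hosts at LRRN4CL and THSD4, and the first 3 of these also after scaling. Another 6 were called in the 3 fits that tested them, and all 6 had passed the filter through a single condition.

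On the log2(FPKM + 1) scale, which understates changes of low genes, the largest rise was at LRRN4CL, which codes for a membrane protein with leucine-rich repeats. The host ENSSSCG00000024917 (chr2:9066240-9066937, +) lies inside the RefSeq gene and covers 30.3% of it, and no other listed gene has that symbol. It had 1.68, 1.69 and 2.52 FPKM in normoxia and 21.2, 22.8 and 23.9 in hypoxia. All hypoxia libraries were far above all normoxia libraries, by 11.5-fold in mean FPKM (limma log2 fold change 3.00, SE 0.168, adjusted p = 0.000143). Its single peak, chr2:9066790-9066937, is in the hypoxia list alone, with a log2 enrichment of 4.85.

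NOD1 was the named host with the largest rise. Its level was 2.97, 3.32 and 3.31 FPKM in normoxia and 15.6, 16.6 and 13.7 in hypoxia, with no overlap (limma log2 fold change 1.95, SE 0.147, adjusted p = 0.000385). It had 7 peaks in the normoxia list and 4 in the hypoxia list. The peaks at the end of its span, chr18:42512055-42512264 in normoxia and chr18:42511965-42512234 in hypoxia, had log2 enrichments of 4.67 and 3.74.

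The complement receptor gene C3AR1, another gene of innate immunity, had 1.70, 1.84 and 2.07 FPKM in normoxia and 2.92, 3.38 and 2.83 in hypoxia. The groups did not overlap, but its limma adjusted p was 0.0548 as deposited and 0.0199 after scaling (log2 fold change 0.49 and 0.74). XIRP1, an actin-binding protein of striated muscle, had 22.6, 28.8 and 38.0 FPKM in normoxia and 40.1, 43.1 and 62.3 in hypoxia. It did not pass the test either (limma log2 fold change 0.69, SE 0.245, adjusted p = 0.0816).

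At HSPA1L, a gene of the HSP70 chaperone family, the minus-strand host ENSSSCG00000044205 (chr7:23933394-23940056) had 0.406, 0.211 and 0.227 FPKM in normoxia and 4.89, 5.58 and 3.52 in hypoxia. Every hypoxia library was above every normoxia library, by 16.6-fold in mean FPKM (limma log2 fold change 2.13, SE 0.188). This is one of the 7 hosts that entered the test through the hypoxia libraries alone. HSPA1L itself, listed separately on the same strand, had 0.159 ± 0.0446 and 1.85 ± 0.442 FPKM (limma log2 fold change 1.29) and entered it in the same way. The host went from 1 peak in the normoxia list to 4 in the hypoxia list. The normoxia peak overlaps one of the plus-strand host ENSSSCG00000044572, with log2 enrichments of 0.25 (minus) and 0.23 (plus). The hypoxia peaks chr7:23935099-23935727 and chr7:23935996-23936146 also overlap plus-strand peaks, with 0.73 and 1.63 (minus) and 0.68 and 1.63 (plus). Which strand these overlapping peaks belong to cannot be told.

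The host at PPP1R3G and LYRM4 behaved in a like way. PPP1R3G codes for a subunit that targets protein phosphatase 1 to glycogen, and LYRM4 for a factor of iron-sulfur cluster assembly. The host ENSSSCG00000041566 had 0.149, 0.0507 and 0.220 FPKM in normoxia and 4.40, 4.88 and 3.06 in hypoxia (limma log2 fold change 2.15, SE 0.184), a ratio of 29.4 in mean FPKM. It too was tested only because its 3 hypoxia libraries reached 1 FPKM. PPP1R3G, on the same strand as the host, had 0.0118 and 1.08 FPKM in normoxia and hypoxia and was below the filter. LYRM4, on the other strand, had 6.15 and 3.89 FPKM (limma log2 fold change -0.58, adjusted p = 0.119). The host's 2 peaks were in the hypoxia list alone.

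SHAS2 is the RefSeq symbol of pig hyaluronan synthase 2, which makes the hyaluronan matrix of the expanding cumulus. The host there, ENSSSCG00000047133, lies on the strand opposite to SHAS2. It had 0.418, 0.154 and 0.391 FPKM in normoxia and 1.87, 2.05 and 1.44 in hypoxia (limma log2 fold change 1.08, SE 0.158), and it is another of the hosts tested through hypoxia alone. SHAS2 had 2.28 ± 0.462 and 4.35 ± 1.36 FPKM and did not pass (limma log2 fold change 0.68, adjusted p = 0.0769). The host's peaks in the lists, chr4:17583681-17583891 in normoxia and chr4:17583411-17583621 in hypoxia, did not overlap.

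Other hosts called higher changed by 0.75 to 1.82 on the log2(FPKM + 1) scale. The host at TRIOBP, an actin-binding protein gene, had 0.272 ± 0.0272 and 2.03 ± 0.745 FPKM (a limma log2 fold change of 1.23), and ENSSSCG00000041092, at no RefSeq gene, 0.126 ± 0.0822 and 2.99 ± 0.493 (1.82). Both entered the test through the hypoxia libraries alone, as did the host at MOAP1 (0.75). The limma call at MOAP1 was lost without normoxia replicate 1 (adjusted p = 0.0516) or normoxia replicate 3 (0.0612). ENSSSCG00000053480, also at no RefSeq gene, rose from 1.52 ± 0.164 to 3.32 ± 0.432 FPKM (0.77). The host at MAGEL2, an imprinted gene of the MAGE family, had 2.77 ± 0.133 and 5.97 ± 1.50 (0.87), and the host at GLYATL2, of the glycine N-acyltransferase family, 1.28 ± 0.251 and 2.95 ± 0.364 (0.80).

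The host at CCNG2, the gene of cyclin G2, which slows the cell cycle, lies on the other strand and had 0.464 ± 0.168 and 1.50 ± 0.487 FPKM (log2 fold change 0.76), also tested through hypoxia alone. CCNG2 itself rose from 2.40 to 6.50 FPKM (limma log2 fold change 1.09, adjusted p = 0.0327). The limma calls for the hosts at MAGEL2 (adjusted p 0.0706, 0.0781 and 0.0643) and CCNG2 (0.0837, 0.0955 and 0.118) were lost without normoxia replicate 1, 2 or 3. That for the host at GLYATL2 was lost without normoxia replicate 1 (0.0677), normoxia replicate 3 (0.0661) or hypoxia replicate 1 (0.0615). That for ENSSSCG00000053480 was lost without normoxia replicate 2 (0.0722), normoxia replicate 3 (0.0703) or hypoxia replicate 1 (0.0542).

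**Figure D2:**
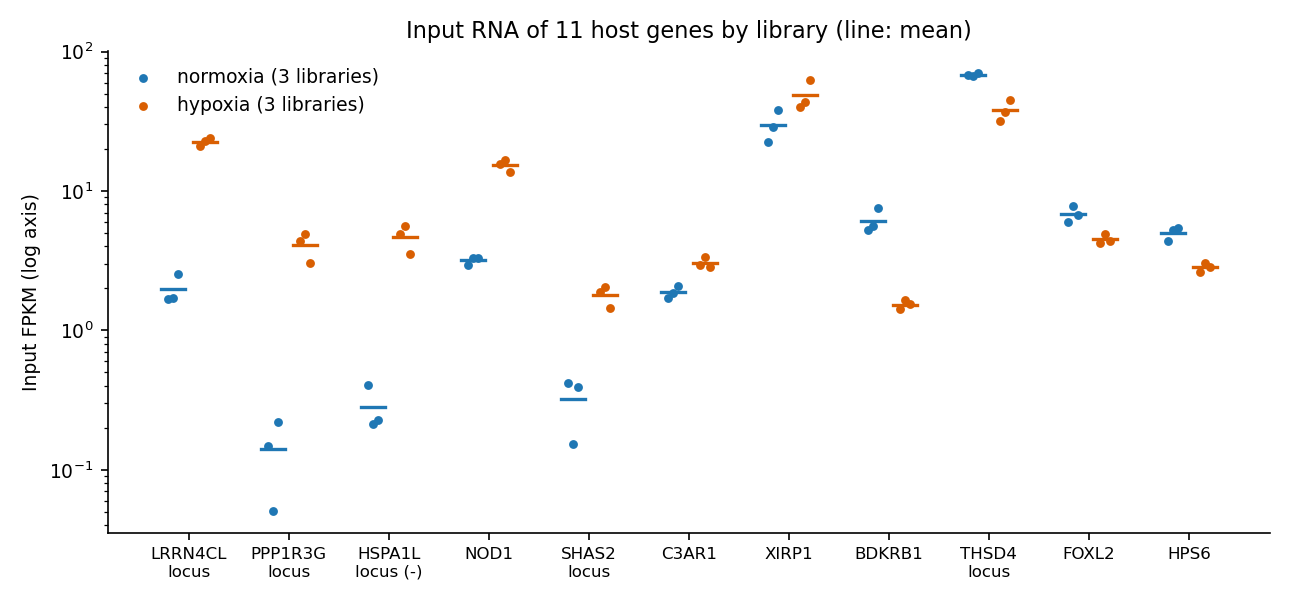
Input FPKM (log axis) of 11 host genes in each of 3 normoxia (blue) and 3 hypoxia (orange) libraries, with a line at the mean of each group. The groups do not overlap for any of the 11, but C3AR1, XIRP1 and FOXL2 did not pass the limma test. The hosts at PPP1R3G, HSPA1L and SHAS2 were tested through hypoxia alone, so the filter fixed their lack of overlap.

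BDKRB1 fell most of all tested hosts. This inducible receptor of kinin peptides had 5.22, 5.57 and 7.54 FPKM in normoxia and 1.42, 1.64 and 1.54 in hypoxia. Every hypoxia library was below every normoxia library (limma log2 fold change -1.48, SE 0.181, adjusted p = 0.0019), and after scaling the change was -1.21. It kept 2 peaks in each list, and that at the end of the gene, chr7:117492175-117492410, has the same span in both lists, with log2 enrichments of 2.04 and 2.20. The RefSeq gene BDKRB1 has exactly the span of this host.

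The host at THSD4 lies at the end of a gene that codes for an extracellular matrix protein binding fibrillin. ENSSSCG00000056642 (chr1:169324516-169328540, +) covers 0.697% of the THSD4 span. It had 68.1, 66.6 and 70.6 FPKM in normoxia and 31.8, 37.1 and 44.6 in hypoxia (limma log2 fold change -0.85, SE 0.158, adjusted p = 0.0084). THSD4 itself, on the same strand, had 58.4 and 35.2 FPKM (limma log2 fold change -0.72, adjusted p = 0.0236). The host's call was lost after median-ratio scaling (limma log2 fold change -0.50, adjusted p = 0.20).

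The host at ZNF618, a zinc finger gene, also fell. The plus-strand host at ZNF618 had 4.38, 4.54 and 4.43 FPKM in normoxia and 1.94, 2.30 and 1.86 in hypoxia (limma log2 fold change -0.85, SE 0.154, adjusted p = 0.0076). ZNF618 fell beside it, from 4.02 to 2.01 FPKM (limma log2 fold change -0.74, adjusted p = 0.0149). The host at DPF3, a chromatin reader of the BAF complex, had 1.85 ± 0.170 and 0.675 ± 0.0864 FPKM (log2 fold change -0.77) and the lncRNA LOC102162054 host 1.94 ± 0.0987 and 0.645 ± 0.122 (-0.84). Both entered the test through the normoxia libraries alone. The limma call at ZNF618 was lost without normoxia replicate 2 (adjusted p = 0.0535) or hypoxia replicate 1 (0.0505), and that at DPF3 without hypoxia replicate 1 (0.0523).

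The remaining 10 falls were between -0.56 and -0.73 on the log2 scale and none of them was called after scaling. Those with names were ZBED4, a zinc finger gene, with 4.25 ± 0.402 FPKM in normoxia and 2.34 ± 0.121 in hypoxia, and HPS6 with 5.01 ± 0.579 and 2.84 ± 0.225. HPS6 codes for a subunit of BLOC-2, which sorts cargo to lysosome-related organelles; its partner HPS5 had 6.55 ± 0.713 and 4.84 ± 1.44 and did not pass (limma log2 fold change -0.40, adjusted p = 0.236). Each fit without a normoxia library tested 9 of these 10 hosts. Without normoxia replicate 1 the limma calls of 7 were lost and without replicate 2 or 3 those of all 9, with adjusted p up to 0.125, 0.184 and 0.154. Without hypoxia replicate 1 all 10 were lost (limma adjusted p from 0.0553 to 0.158), and without hypoxia replicate 2 that at GNA12 (0.0876).

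The hosts at 2 X-chromosome loci were abundant and fell. That at LOC100519997 had 44.7 ± 3.22 FPKM in normoxia and 27.9 ± 3.93 in hypoxia, and that at the pseudogene LOC100521239 24.8 ± 1.86 and 14.8 ± 1.35. The other falls included the hosts at LOC110256827 (4.03 ± 0.248 and 2.03 ± 0.0694 FPKM) and at the pseudogene LOC110255560 (1.49 ± 0.329 and 0.562 ± 0.0374), the latter tested through normoxia alone. ENSSSCG00000048463, at no RefSeq gene, had 3.51 ± 0.578 and 1.78 ± 0.292.

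FOXL2 did not pass the test. It had 6.01, 7.80 and 6.68 FPKM in normoxia and 4.26, 4.89 and 4.35 in hypoxia, with no overlap (limma log2 fold change -0.51, SE 0.159, adjusted p = 0.054), and after scaling the change was -0.20 (adjusted p = 0.487). Its single peak, chr13:79709080-79709825 (-), had the same span in both lists, with log2 enrichments of 2.81 in normoxia and 2.63 in hypoxia. FAT1 had 13.9 ± 0.539 and 13.5 ± 5.57 FPKM, TSHZ2, a zinc finger transcription factor, 3.21 ± 0.328 and 4.71 ± 1.87, and TOB1, an antiproliferative protein, 10.2 ± 0.361 and 8.74 ± 4.05. None of these 3 passed, and the groups overlapped in each. MANSC1, a membrane protein, had 34.0 ± 0.898 and 30.8 ± 0.850 FPKM (log2 fold change -0.14 as deposited, 0.20 after scaling), and PLRG1, a spliceosome component, 4.82 ± 0.887 and 3.18 ± 1.84.

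Many hosts lie at a protein-coding gene that is listed under an identifier of its own, and the levels could be set side by side. This held for 185 hosts, in 189 pairs of host and gene, 92 on the same strand and 97 on opposite strands. Of these hosts 134 have FPKM listed, and the host was below such a gene in 107 of the 134. For 33 tested hosts exactly 1 such gene was tested, and the log2 fold changes of host and gene had the same sign in 27. Of the 9 called hosts among them, 5 lay at a gene called in the same direction and 0 at a gene called in the opposite direction. These 5 were the hosts at HSPA1L, THSD4, ZNF618, CCNG2 and GNA12, a G protein subunit gene; those at HSPA1L and CCNG2 were tested through hypoxia alone. In 3 of the 33 the span listed for the gene overlapped that of its host. In the others the host overlaps the RefSeq gene but lies outside the gene as the expression table lists it. Host and gene were measured in the same libraries, and the median log2 fold change of all tested genes was -0.26. The agreement in sign and in calls is therefore a description, and that between unrelated genes was not counted.

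The authors' deposited table of expression differences gives a q-value under 0.05 for 57 of the 575 listed hosts (9.91%, against 13.7% of the 18060 genes), 43 higher and 14 lower by mean FPKM. Of these 32 were below the filter of the limma test. The split by direction over all genes with such a q-value was not counted, so 43 and 14 are not read as a trait of the hosts. The host at RNF165 had 0.00405 FPKM in normoxia and 0.543 in hypoxia, with a q-value of 3.01e-20 in the authors' deposited table. NAP1L5, a nucleosome assembly protein gene that is imprinted in other mammals, had 2.34, 1.77 and 0.812 FPKM in normoxia and 0.272, 0.0329 and 0.145 in hypoxia, and the q-value in the authors' deposited table was 7.02e-05. Its span lies within that of HERC3, whose level went the other way, 8.88 to 10.1 FPKM in normoxia and 16.3 to 19.3 in hypoxia.

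Sharing of the peaks between conditions was counted as any overlap on the same strand. Of the 1078 normoxia peaks 741 (68.74%) overlapped a hypoxia peak, and of the 1093 hypoxia peaks 805 (73.65%) overlapped a normoxia peak. All of these overlaps were with another ncRNA_exonic peak. For peaks annotated UTR3 the shares were 76.87% and 85.29%, for exonic 68.51% and 85.89% and for UTR5 69.66% and 79.06%. The lists are single lists without replicates, so these shares have no error. Fewer peaks were shared under a stricter rule. With a reciprocal overlap of at least 50% of both spans, 376 normoxia and 377 hypoxia peaks were shared, and 32 had identical spans.

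Sharing went with the abundance of the host. For hosts under 0.1 FPKM 57.87% of normoxia and 58.62% of hypoxia peaks were shared, and for hosts at 1 FPKM or more 73.42% and 80.6%. Unshared peaks also had weaker statistics. The authors' adjusted p-value was under 0.05 for 51.04% of the 337 unshared normoxia peaks and 83.13% of the shared ones, and for 39.93% of the 288 unshared hypoxia peaks and 80.75% of the shared ones.

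**Figure D3:**
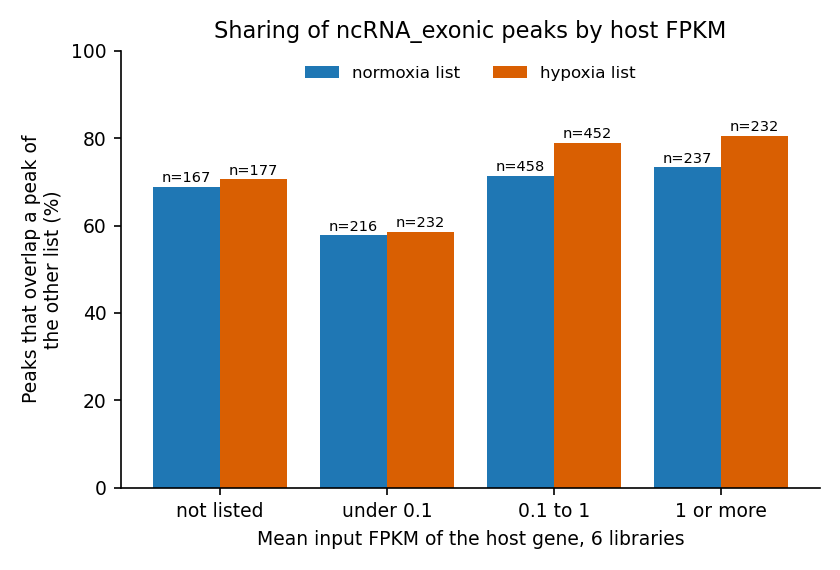
Share of ncRNA_exonic peaks (%) that overlap a peak of the other condition's list, by mean input FPKM of the host gene; n is the number of peaks and bars carry no error because each list is single. The lowest bars, 57.87% and 58.62%, are those of hosts under 0.1 FPKM, and the highest those of hosts at 1 FPKM or more.

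By host gene, 452 had peaks in both lists, 126 in the normoxia list alone and 153 in the hypoxia list alone. The hosts found in a single list had little RNA. Their median FPKM was 0.0838 in normoxia and 0.0653 in hypoxia for the normoxia-only hosts, 0.0568 and 0.0825 for the hypoxia-only hosts and 0.309 and 0.287 for the shared hosts. Of the 97 listed normoxia-only hosts 64 had the lower mean FPKM in hypoxia, and of the 114 listed hypoxia-only hosts 80 had the higher. Peak calling needs reads, so these counts give level and peak together and not the mark alone. Among 10 tested hypoxia-only hosts 3 were called higher (5.4% of all tested genes were), those at LRRN4CL, PPP1R3G and TRIOBP, of which the last 2 passed the filter through hypoxia alone. Among 12 tested normoxia-only hosts 1 was called lower (21.1% of all tested genes were), that at MAFG.

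The enrichments printed here are the authors' log2 values of antibody library over input. Their median over ncRNA_exonic peaks was 2.77 in normoxia and 2.85 in hypoxia, with UTR3 peaks at 2.15 and 2.33, exonic at 1.78 and 2.09 and UTR5 at 2.08 and 2.36. The range was wide, from 0.23 to 7.43 in normoxia. Fewer of the members passed an adjusted p-value of 0.05, 788 (73.1%) and 765 (69.99%), against 88.89% and 87.57% of UTR3 peaks. Many members shared the same enrichment value after rounding. The 10 most frequent rounded values were taken over all annotations of a list. They held 40.17% of normoxia and 44.92% of hypoxia members. The shares were 27.67% and 30.74% for UTR5, 17.27% and 21.19% for UTR3 and 14.95% and 16.6% for exonic peaks. Among the members this share was 58.33% and 62.5% for hosts under 0.1 FPKM and 14.77% and 20.69% for hosts at 1 FPKM or more.

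The midpoint of a member lay at a median of 52.17% of the gene span from its start in normoxia and 52.9% in hypoxia, nearest to exonic peaks at 64.58% and 65.78%, while UTR3 peaks lay at 94.84% and 95.35% and UTR5 peaks at 8.61% and 7.48%. A member began at the first base of its gene in 224 and 217 cases and ended at the last base in 207 and 200. The latter is 19.2% and 18.3% of the members, about the share of UTR3 peaks (19.61% and 19.89%). It covered at least 90% of the gene span in 74 and 80 cases. Spans include introns, with a median of 539 bases in normoxia and 450 in hypoxia. Most hosts had a single peak, 347 of 578 and 363 of 605, and FAT1 had 10 and 14.

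The strongest members were at a few loci. At SOX4 the plus-strand host had a peak at chr7:16892893-16894000 in normoxia and chr7:16892893-16894029 in hypoxia, with a log2 enrichment of 3.96 in the former. Its p-value is listed as 0 in both lists, as is that of a peak of ENSSSCG00000052556, a host at no RefSeq gene with 6.53 FPKM. In hypoxia 9 members are listed at a p-value of 0, among them the peak that covers all of XIRP1 (chr13:23867474-23876852, log2 enrichment 2.74). The highest enrichment of the normoxia list was 7.43, for a peak of the minus-strand host ENSSSCG00000052857 inside the span of AHDC1, and that of the hypoxia list was 6.14, for the host at RFXAP, a gene of MHC class II transcription. AHDC1 itself, a DNA-binding protein gene, had log2 enrichments of 3.99 and 4.69 for the peak at the start of its span.

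Several named hosts had peaks with almost no RNA listed. GPRIN3, at 0 FPKM in 5 of 6 libraries and 0.00530 in the other, had 6 peaks in normoxia and 1 in hypoxia, the strongest with a log2 enrichment of 2.81. BLOC1S3, a BLOC-1 subunit, had 0.0184 and 0.0127 FPKM and 2 peaks in each list, which overlap each other on its strand. NHLRC1, the ubiquitin ligase malin, had 0.309 ± 0.115 and 0.0777 ± 0.0711 FPKM and 6 and 2 peaks, some of which overlap each other on its strand, so the peak counts of these 2 genes overstate their separate sites.

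Peaks on opposite strands of the same span were common among the members. In normoxia 18.92% of the members and in hypoxia 19.03% overlapped a peak on the other strand, against 7.62% and 6.76% of UTR3 and 2.1% and 2.14% of exonic peaks. For 93 (8.63%) and 103 (9.42%) members the overlap covered at least 90% of both spans, against 1.2% and 1.45% of UTR3 peaks, and every such partner of a member was itself annotated ncRNA_exonic. These peaks formed 47 pairs in normoxia and 52 in hypoxia. Within a pair the log2 enrichments differed by a median of 0.0148 and 0.0317, and 33 and 36 pairs were within 0.1. Across pairs Pearson's r between strands was 0.952 and 0.978; this is a description, since the peaks of a pair share the span and the libraries.

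**Figure D4:**
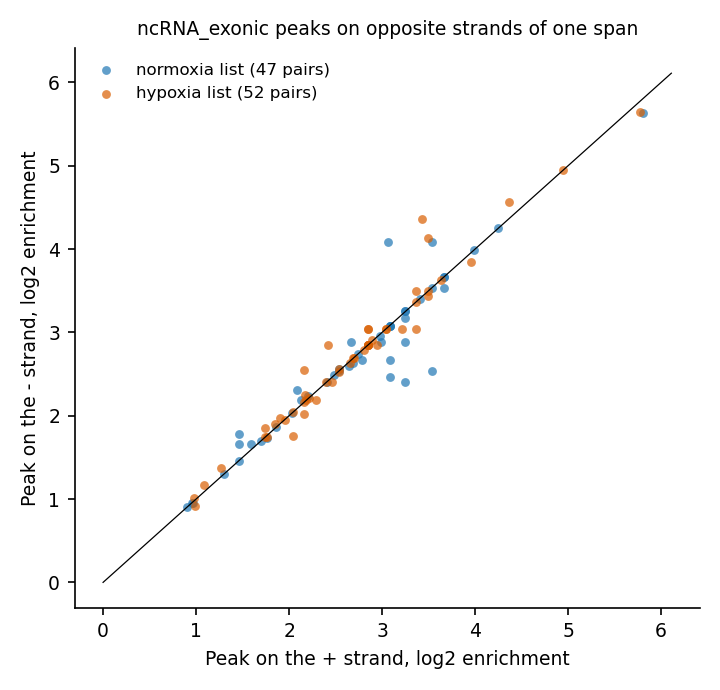
Authors' log2 enrichment of the peak on the plus strand (x axis) and on the minus strand (y axis) for 47 normoxia (blue) and 52 hypoxia (orange) pairs of ncRNA_exonic peaks that cover at least 90% of each other; the line marks equal values. Most pairs lie on the line, with 33 and 36 within 0.1.

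A host reached 1 FPKM in 22 normoxia and 18 hypoxia pairs, which come from 12 and 11 pairs of hosts. The host on the other strand was listed in 14 and 11 of these peak pairs, from 5 and 4 pairs of hosts, and was under 0.1 FPKM in each. In the other 8 and 7 it was not listed, so its RNA has no value. The hosts ENSSSCG00000048192 and ENSSSCG00000045283 alone gave 7 and 5 of the peak pairs. At ZNF618 the plus-strand host had a mean of 3.24 FPKM and the minus-strand host 0.00291, yet the normoxia peak chr1:254674711-254675518 (+) had a log2 enrichment of 2.97 and its partner chr1:254674708-254675516 (-) 2.96. At the lncRNA LOC100513133 the hosts had 6.13 FPKM (minus) and 0.0590 (plus), with log2 enrichments of 5.64 and 5.81. At HSPA2, a testis-enriched HSP70 gene, the hosts had 8.21 and 0.0655 FPKM, with 2.64 and 2.59 in normoxia. At LOC100513397 the strands differed more, with 3.06 on the strand of 14.0 FPKM and 4.08 on that of 0.00821. The sources used here do not say whether peaks were called with strand, so which strand carries the mark at these loci cannot be told from the lists. Whether the peaks of a pair are separate sites was not tested, and they are not read as such.

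The same holds for loci outside the 90% pairs, such as HSPA1L, where the overlapping peaks are given above. At SOX4 the minus-strand host, at 0.00488 FPKM, had peaks with log2 enrichments of 4.27 and 4.19 that overlap those of the plus-strand host. MIR1282 on the plus strand had a peak over its whole span, chr1:127766052-127766152, with log2 enrichments of 1.21 in normoxia and 1.40 in hypoxia. SERF2, on the minus strand, has UTR5 peaks there with log2 enrichments of 1.36 and 1.42 and a mean of 336 FPKM, while MIR1282 had a mean of 0.0100.

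Changes of modification were taken from the differential peaks. The authors' deposited table of differential peaks lists 33 ncRNA_exonic rows on 31 hosts, 17 with a positive and 16 with a negative log2 value. Of the positive rows 11 overlapped peaks of both lists and 6 hypoxia peaks alone, and of the negative rows 12 both and 4 normoxia peaks alone, so positive values were read as higher in hypoxia. Of the 33 rows, 6 (18.18%) had an adjusted p under 0.05 in the authors' deposited table, against 35.3% of all 1206 rows. The rows of other annotations in the authors' deposited table were 502 higher and 671 lower.

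Of the 6 rows, 3 were at HSPA1L. In the authors' deposited table the minus-strand host's peak chr7:23934232-23934620 had a log2 change of 2.29 (adjusted p = 6.31e-15). The overlapping peaks chr7:23935245-23935717 (+) and chr7:23935159-23935727 (-) had 0.376 and 0.362 in the authors' deposited table (adjusted p = 1.26e-08 and 1.86e-08). Both hosts had more RNA in every hypoxia library than in any normoxia library. For the minus-strand host, tested through hypoxia alone, the filter fixed this in advance, so it supports nothing. The minus-strand host had 0.281 ± 0.108 FPKM in normoxia and 4.66 ± 1.04 in hypoxia. The plus-strand host ENSSSCG00000044572 had means of 48.0 and 62.2 FPKM and did not pass the limma test (adjusted p = 0.106).

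The other 3 rows were lower in hypoxia. In the authors' deposited table the peak chr14:113082367-113084534 over most of HPS6 had a log2 change of -0.361 (adjusted p = 0.0288). The host at NAV1, a gene of neuronal navigation, had -0.345 in the authors' deposited table (adjusted p = 0.00219), with 0.203 and 0.194 FPKM in normoxia and hypoxia. The host at LOC110260402, which the expression table does not list, had -0.521 in the authors' deposited table (adjusted p = 0.0257).

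**Figure D5:**
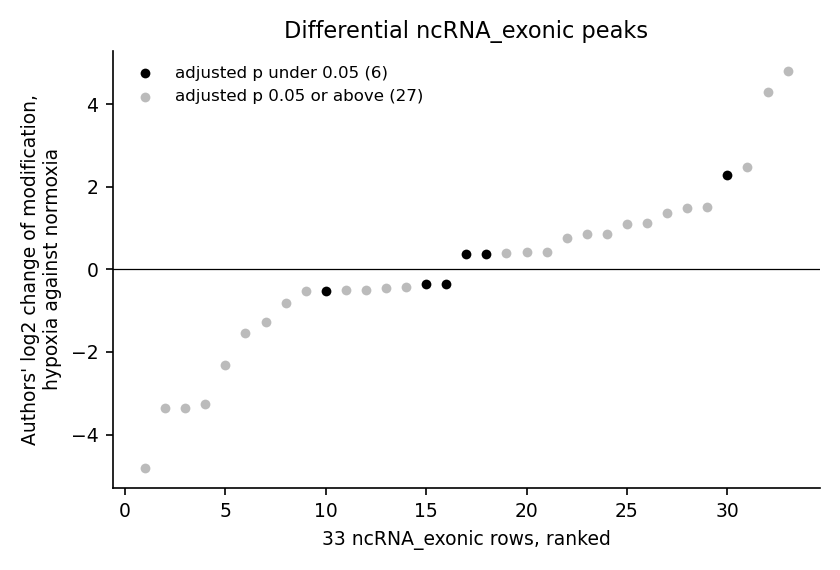
Log2 change of modification in hypoxia against normoxia, from the authors' deposited table, for the 33 ncRNA_exonic rows ranked along the x axis; black marks the 6 rows with an adjusted p under 0.05. The extreme rows, at 4.81 and -4.81, are grey.

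Large changes were seldom among the rows that passed. By the authors' deposited table the change was at least 2 log2 units in 9 of the 33 rows, and 1 of these had an adjusted p under 0.05. The highest value in the authors' deposited table, 4.81, was that of the host at LRRN4CL (p = 0.00347, adjusted p = 0.0603), and the lowest, -4.81, that of ENSSSCG00000042721 at the lncRNA LOC110257555 (p = 0.0115, adjusted p = 0.136). Rows for both strands at ZNF618 had -0.509 and -0.526 in the authors' deposited table (adjusted p = 0.15 and 0.132).

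The change of modification could be set beside that of the input RNA for some of these hosts. Of the 31 hosts 6 are not in the expression table, 12 were tested by limma and 7 of these were called (58.33%, against 26.5% of all tested genes). In 9 of the 12, and in 6 of the 7 called, every row of the host had the sign of its RNA change. The 2 called hosts with a row under an adjusted p of 0.05 in the authors' deposited table, the minus-strand host at HSPA1L and HPS6, were among the 6. Both measures use the same input libraries, so this is a description. The minus-strand host at HSPA1L was tested through hypoxia alone, so its place among the 7, 9 and 6 supports nothing. The host at MAGEL2 rose in RNA and had 0.388 in the authors' deposited table (adjusted p = 0.157), while ENSSSCG00000053480, the called host whose signs differed, rose in RNA and had -0.818 in the authors' deposited table (adjusted p = 0.145). The host at THSD4 fell in RNA and had -0.417 in the authors' deposited table (adjusted p = 0.182). None of these 3 rows passed an adjusted p of 0.05.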

How the data were processed

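The authors deposited FPKM for 18060 genes in 6 input libraries, peak lists with a log2 enrichment, p-value and adjusted p-value per peak (1 list per condition), a table of differential peaks and a table of expression differences with p- and q-values, per the file headers. The submitters' processing notes name HISAT2 2.0.4, StringTie 2.1.2, HOMER 4.10, edgeR 4.1, fastp 0.19.4 and FastQC, and the build Sscrofa11.1. The role of each tool, any pooling of replicates for peaks and any use of strand are not given in the sources. The library protocol marks strand with dUTP, per the labels.

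Starts in the peak tables count from 0 and are printed from 1. Peak overlap needs 1 base on the same strand. Hosts were matched to RefSeq genes (GCF_000003025.6) by span. Input FPKM were compared with limma 3.58.1 in R 4.3.3 (trend, robust) on log2(FPKM + 1), filter 1 FPKM in 3 libraries, Benjamini-Hochberg adjustment over 10196 genes; this scale understates changes of low genes. On simulated data for this comparison over 10196 genes, 42% of changes of 1 log2 unit and 79% of those of 2 were recovered, with 3 false calls of 124. The simulated noise was independent between genes, with 100 genes changed by each amount and no shift shared within a library. The measured libraries had median-ratio factors of 0.7525 to 1.165, so the false-call figure does not carry over to them. FPKM hold no counts, so no depth or counting interval is given.

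Named genes were all hosts with a symbol, called hosts (up to 10 each way by size), the 8 most abundant, hosts of up to 12 differential rows by p, and the peaks of lowest p (6 per list, plus ties at 0) and highest enrichment (4 per list); other genes at these loci, and the hosts around small RNA genes, were named after their values were seen. Members and lists were chosen with earlier results of these data known. Alternatives were another pseudocount, no filter, median-ratio scaling, a replicate block, no trend, and each library left out; for peaks, reciprocal overlap and stricter adjusted p-values. Sequences and motifs were not analysed here.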

Additional observations from a re-analysis of the deposited data

Results flagged for a closer look

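These are the 6 ncRNA_exonic peaks whose modification differed between hypoxia and normoxia by the authors' own test, at an adjusted p under 0.05. In the authors' deposited table the changes were 2.29, 0.376 and 0.362 (log2) for 3 peaks at the HSPA1L locus, -0.345 for the host at NAV1, -0.521 for the host at LOC110260402 and -0.361 for HPS6. The peaks of 0.376 and 0.362 lie on opposite strands of an overlapping span and are not read as separate sites.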

How the results depend on the processing

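The number of host genes called was 28 with a pseudocount of 0.1 FPKM, 31 without trend and robust estimation, 24 after median-ratio scaling and 68 without the filter on low FPKM, which tests 575 hosts. Leaving out 1 library at a time gave 6 to 41. Apart from that after scaling, the counts in this paragraph stand without the share over all tested genes. They are not read as particular to the hosts. Same-numbered replicates are not stated to share a sow or day. Their deviations correlated at 0.586, 0.04 and 0.697, and those of differently numbered replicates at -0.712 to 0.641. Whether the numbers pair the samples cannot be told from these values, and the main fit did not pair them. With a replicate block 36 hosts were called. Of 42 named hosts, scaling reversed the sign of FAT1 (0.23), TOB1 (0.0188), MANSC1 (0.20), ENSSSCG00000053166 (0.30) and ENSSSCG00000054652 (0.15), none of them called, and ended 11 calls. With 1 library left out, the log2 fold change ran from -0.40 to 0.10 for FAT1, -0.58 to 0.0763 for TOB1, -0.17 to 0.19 for ENSSSCG00000053166 and -0.11 to 0.45 for ENSSSCG00000031657; no other named host changed sign. With a reciprocal overlap of 50%, 376 normoxia and 377 hypoxia peaks were shared; limited to peaks with adjusted p under 0.05 in both lists, 546 and 592 were. At that threshold the differential table keeps 6 of its 33 rows. The planned motif count was not run.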

Other observations

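The labels name sows as the source of the cells, yet 4 normoxia and 3 hypoxia ncRNA_exonic peaks are listed on the Y chromosome, on 2 hosts at lncRNA loci. The host at LOC102165752 had 0.132 ± 0.0130 FPKM in normoxia and 0.122 ± 0.0789 in hypoxia (SD, n = 3 each). The host at LOC110257912 had 0.154, 0.257 and 0.186 FPKM in the hypoxia libraries and is listed at 0 in those of normoxia. On the X chromosome 43 and 44 peaks were listed.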
